A study of Mus musculus with 15 samples.

Results

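The windows described here are stretches of 3 kb in which acetylated histone H3 lysine 27 (H3K27Ac) was high in pre-B cells, was still present 3 h after induction of C/EBPα and was low at 48 h. The cells were C10, a line made from HAFTL, a mouse pre-B line, and carry GFP together with a C/EBPα fusion to the estrogen receptor. β-estradiol, at 100 nM by the labels and at the same figure in µM by the printed methods, moves that fusion into the nucleus, and the cells were grown with IL-3 and CSF-1 at 10 nM. All 15 libraries are described as coming from this line, although the H3K27Ac libraries of 0 and 3 h stood apart at the heavy chain locus, as given below. They covered H3K27Ac, H3K4Me1 and H3K27Me3 at 0, 3, 12, 24 and 48 h post-induction, with 1 library per mark and time. The labels state that control cells received the solvent, ethanol, and do not state whether the 0 h cells did. Because no mark or time was repeated, the spread between replicates is unknown, and no test between times was made.

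H3K27Ac marks active enhancers and promoters, H3K4Me1 marks enhancers whether active or only primed, and H3K27Me3 is placed by Polycomb complexes on repressed chromatin. When an enhancer is switched off it can lose its acetylation while some H3K4Me1 stays behind. C/EBPα is a transcription factor of granulocytes and macrophages. Pre-B cells instead rely on EBF1, PAX5, the E proteins and FOXO1, and they rearrange and express the immunoglobulin genes.

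The autosomes and chromosome X of mm9 were tiled into 3 kb windows. F was the number of distinct tag positions in a window divided by the mean of that library over the 832530 windows with a tag in any library. Windows were chosen by F of at least 3 at 0 h, an F at 3 h over 0.5 of that at 0 h and an F under 1.5 at 48 h, all for H3K27Ac. This gave 2032 late-loss windows, which was 5.08% of the 40030 windows with a 0 h F of at least 3. With windows low in all libraries set equal across libraries the rule gave 1182, and the median 3 h value of the 2032 was then 0.552 of that at 0 h, near the limit of 0.5, where it had been 0.727. The H3K27Ac values at 0, 3 and 48 h were therefore selected on, and they are given as a description only. The H3K27Ac libraries at 12 and 24 h and all libraries of the other marks were not used for the choice. Among the same 40030 windows, 30008 kept an F of at least 1.5 at 48 h after passing the 3 h limit ("kept windows"), and 1942 were already at or below 0.5 of their 0 h F by 3 h and low at 48 h ("windows lost by 3 h"). An F of 3 stood for 54.8 tags at 0 h, where the H3K27Ac library held 15216488 distinct positions. The 15 libraries held between 10913733 and 31541879. Tag counts given below are not scaled for depth. The mean per window was 18.28 to 21.05 tags in the H3K27Ac libraries and 13.11 to 21.03 in those of H3K4Me1, whereas for H3K27Me3 it was 37.89 at 0 h and 18.42 to 25.19 at the later times, so times are compared by F.

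In 3 kb centred on the starts of 9 pre-B marker genes, the H3K27Ac F was between 10.8 and 93.6 at 0 h, and at 48 h it was at most 0.5 of that at all 9, although 8 still had an F of at least 3. Of 9 macrophage markers, 2 had an F of at least 3 at 0 h and 7 had one at 48 h. None of 7 T cell markers reached an F of 3 at either time, and 1 of 5 erythroid markers did at both.

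The H3K27Ac libraries at 0 and 3 h stood apart from all others at the immunoglobulin heavy chain locus. Between chr12:114669001-114774000, a span of 105 kb, they held 644 and 544 tags, whereas the other 13 libraries held 28 tags in all. H3K4Me1 held 0 tags there at 0 h and 3 tags at 3 h, the same times at which H3K27Ac was well covered. The span was drawn from the first to the last of the 13 windows with at least 20 tags in the 0 and 3 h H3K27Ac libraries together and at most 5 elsewhere. Low counts elsewhere are therefore partly built in, but all such windows in the genome lay on this chromosome. In this span the H3K27Ac libraries of 0 and 3 h thus held DNA that the H3K4Me1 and H3K27Me3 libraries of the same times in effect did not, and 4 of the late-loss windows lay inside it. A difference between the cells or preparations behind these libraries and the later H3K27Ac libraries cannot be told apart from time, because the rule contrasts 0 and 3 h with 48 h. The H3K4Me1 values themselves came from other libraries. The groups compared, their matching by 0 h acetylation and the classes by time of loss still rest on the H3K27Ac libraries of 0 and 3 h.

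Sequences from 4 of the most heavily acetylated late-loss windows are shown first, because these windows carry the clearest time courses. Each is a 200 bp stretch of the plus strand of NCBIM37 (mm9), outside annotated exons, and it was the stretch of its window with the most matches to 9 short motif cores. Capitals mark the matches.
beyond Glrx3, chr7:144786004-144786203: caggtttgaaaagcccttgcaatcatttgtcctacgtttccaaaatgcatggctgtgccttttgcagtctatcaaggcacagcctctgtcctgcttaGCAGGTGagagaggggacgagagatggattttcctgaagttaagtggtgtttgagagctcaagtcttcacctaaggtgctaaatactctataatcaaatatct
before Nup160, chr2:90507931-90508130: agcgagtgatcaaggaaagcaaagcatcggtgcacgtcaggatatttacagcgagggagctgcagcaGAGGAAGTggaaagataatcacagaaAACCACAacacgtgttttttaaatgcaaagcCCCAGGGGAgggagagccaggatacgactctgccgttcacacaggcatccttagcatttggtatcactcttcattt
1300010F03Rik intron, chr14:79299108-79299307: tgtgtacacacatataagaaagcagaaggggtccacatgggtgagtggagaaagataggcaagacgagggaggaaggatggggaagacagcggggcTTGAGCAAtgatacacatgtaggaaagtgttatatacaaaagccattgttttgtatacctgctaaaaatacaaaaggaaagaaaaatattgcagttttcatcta
before Pfn2, chr3:57718363-57718562: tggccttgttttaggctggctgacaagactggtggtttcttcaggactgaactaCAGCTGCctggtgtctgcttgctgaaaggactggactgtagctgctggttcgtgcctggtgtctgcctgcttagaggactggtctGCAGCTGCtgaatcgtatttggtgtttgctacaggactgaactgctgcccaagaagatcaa
The Nup160 stretch held GAGGAAGT, a core bound by PU.1, then TGTGGTT, a RUNX core, and TCCCNNGGG, a core of the EBF1 site, the latter both on the minus strand. The Pfn2 stretch held the E-box core GCAGCTG in 3 places, where overlapping matches on opposite strands were each counted. The Glrx3 stretch held the other E-box core, GCAGGTG, and the 1300010F03Rik stretch TTGCNCAA, a C/EBP core. A match is a description of these letters and not evidence of binding.

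The window with the most H3K27Ac tags lay at the start of Cplx2, which encodes a complexin of vesicle release, with its centre 212 bp before the start. H3K27Ac there was 1297, 1132, 297, 58 and 13 tags at 0, 3, 12, 24 and 48 h. The 12 h count, which the rule did not use, had a 95% exact Poisson interval of 264 to 333 for counting error alone. H3K4Me1 took the opposite course at this promoter, with 60, 91, 130, 132 and 79 tags, and its F at 48 h was 1.71 times that at 0 h. H3K27Me3 stayed at 1 to 10 tags.

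The second window lay between genes, 158 kb beyond the start of Glrx3, a glutaredoxin. Its H3K27Ac was 1127, 656, 108, 30 and 25 tags, and its H3K4Me1 was 390, 483, 243, 159 and 113 tags. Here both marks were lower at 48 h than at 0 h, but H3K4Me1, at 0.377 of its 0 h F, still had an F of 8.62. The third, 8.87 kb before Nup160, a nuclear pore gene, had 758, 478, 103, 45 and 23 H3K27Ac tags, yet H3K4Me1 at 48 h was still 0.729 of its 0 h F. In an intron of Cmah, which encodes an enzyme of sialic acid hydroxylation, H3K27Ac was 604, 358, 76, 29 and 27 tags. The window in an intron of 1300010F03Rik had 586, 507, 71, 32 and 14 tags of H3K27Ac. It had 316, 432, 303, 211 and 177 tags of H3K4Me1, so a strong H3K4Me1 signal was left when the acetylation was low.

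The window 67.0 kb before Pfn2, a profilin of the actin cytoskeleton, held 576, 562, 60, 15 and 29 H3K27Ac tags. Its F was 31.5 at 0 h, 26.7 at 3 h and 3.06 at 12 h, so most of the decrease lay between 3 and 12 h. A window 108 kb beyond the start of Psat1, an enzyme of serine synthesis, had 551, 374, 81, 46 and 26 H3K27Ac tags. The eighth window, on chromosome X beside the lincRNA Kis2, had 508, 411, 126, 45 and 28 H3K27Ac tags but only 18 H3K4Me1 tags at 0 h. In all 8 windows H3K27Ac at 12 h was between 0.0893 and 0.231 of its 0 h F, and H3K27Me3 never passed 22 tags.

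**Figure D1:**
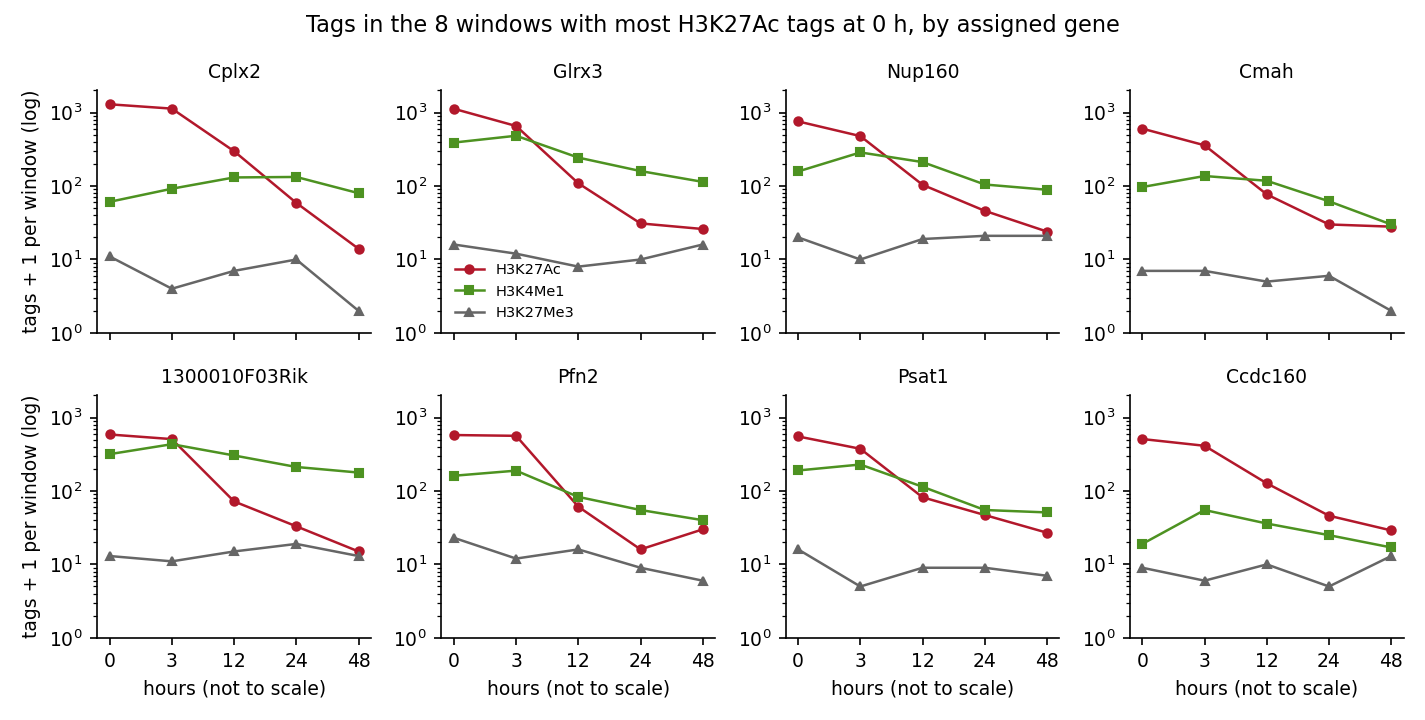
Tags plus 1 per 3 kb window (log axis) against hours post-induction (categories, not to scale) in the 8 late-loss windows with most H3K27Ac tags at 0 h, titled by assigned gene, with 1 library per point. H3K27Ac (red) is between 508 and 1297 tags at 0 h and between 13 and 29 at 48 h, while H3K4Me1 (green) was higher at 48 h than 0 h at Cplx2 and still 177 tags at 1300010F03Rik.

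Across all 2032 late-loss windows, the median H3K27Ac F was 4.38, 3.61, 1.68, 1.04 and 1.02 at 0, 3, 12, 24 and 48 h. The 12 and 24 h libraries, which the rule did not use, placed most of the decrease before 12 h. At 12 h the median window stood at 0.341 of its 0 h F, with 80% of windows between 0.138 and 0.685, and at 24 h it stood at 0.207. With windows low in all libraries set equal these ratios were 0.305 and 0.335, so the further decrease from 12 to 24 h depended on the scaling. By 12 h 1514 windows (74.5%) were at or below 0.5 of their 0 h F, against 25.1% of all 40030 acetylated windows. At 24 h it was 1897 windows (93.4%), against 29.2%. Since the rule asked for a low 48 h value and 12 and 24 h lie between the times it used, a share above these backgrounds is partly built in. For 398 windows (19.6%) 24 h was the first time at or below 0.5, and 120 (5.91%) were still above it at 24 h.

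A small number did not decline at 12 h, and 49 windows (2.41%) had a higher F at 12 h than at 0 h, against 33.3% of all acetylated windows. Among members with at least 80 tags at 0 h, the highest 12 h ratio was in an intron of Zmat4, with 117, 404, 183, 72 and 14 H3K27Ac tags. Its acetylation was thus highest at 3 h, and its H3K4Me1 followed with 67, 139, 153, 89 and 31 tags. A window in an intron near the start of Triobp, an actin-binding gene, had 92, 111, 134, 64 and 27 tags and was highest at 12 h. So was the one at Cdkn3, a phosphatase of cell cycle kinases, with 95, 106, 118, 33 and 28. At the other end, the window 268 bp inside Umod, which encodes uromodulin of the kidney, had 263, 189, 9, 10 and 12 tags, and the lowest ratio of all, 0, was in the heavy chain span described above. The ratios next to it were 0.0230 in a window 707 kb before Igfbp7, with 81, 91, 2, 1 and 4 H3K27Ac tags, and 0.0233 in an intron of Xk, with 80, 167, 2, 1 and 3. H3K4Me1 in these windows had at most 9 and 5 tags at any time, so H3K27Ac stood high at 0 and 3 h with almost no H3K4Me1 outside the heavy chain locus too.

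**Figure D2:**
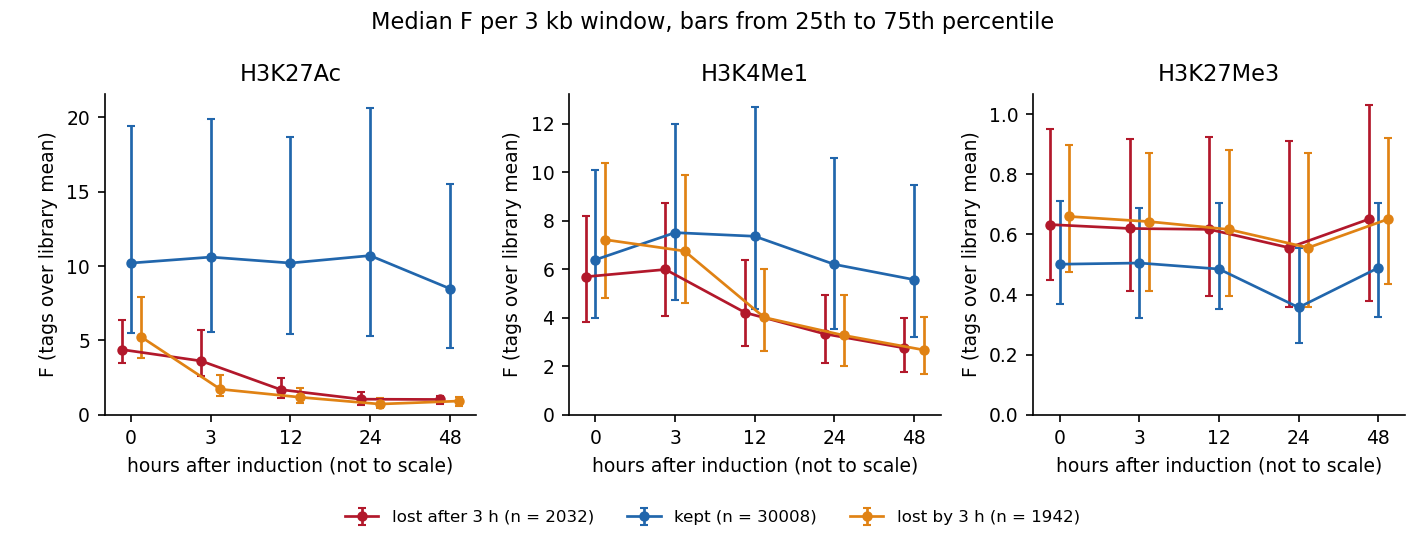
Median F per 3 kb window for each mark (linear axes) against hours post-induction (categories, not to scale), with bars from the 25th to the 75th percentile of windows, for 2032 late-loss, 30008 kept and 1942 lost-by-3-h windows. H3K27Ac of late-loss windows passed from 4.38 to 1.68 by 12 h and H3K4Me1 from 5.69 to 2.75 by 48 h, while H3K27Me3 stayed near 0.6.

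H3K4Me1, which the rule did not use, was lower later than H3K27Ac and by less. The rule chose windows by H3K27Ac that was low at 48 h but not yet at 3 h, so this difference between the marks is partly built in. Its median F was 5.69 at 0 h, 5.99 at 3 h, 4.21 at 12 h, 3.33 at 24 h and 2.75 at 48 h. At 3 h 1264 windows (62.2%) were above their 0 h F, against 72.0% of all acetylated windows. At 12 h 279 (13.7%) were at or below 0.5 of it, against a background of 4.37%. By 48 h 1071 windows (52.7%) were at or below 0.5 of their 0 h F, against 19.2% of all acetylated windows. Windows with no tag at either time, such as the 4 late-loss windows of the heavy chain span, count toward these shares. The median ratio of 48 h to 0 h was 0.482, which is a log2 change of -1.05, with 80% of windows between 0.250 and 0.854.

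The size of the difference from 0 h, and at 3 and 12 h its direction, depended on how the libraries were scaled. The mean F of 479220 windows low in all libraries was itself lower in later H3K4Me1 libraries, at 0.638 of the 0 h library at 12 h and 0.608 at 48 h. With those windows set equal, the median ratio in late-loss windows became 1.21 at 12 h, 0.994 at 24 h and 0.792 at 48 h. At 3 h it was 1.07 as reported, 1.33 with those windows set equal and 0.945 with windows enriched at all 5 times set equal. With the groups held fixed, the comparison with kept windows does not depend on this scaling, since it multiplies both by the same factor. The comparison was not repeated with groups chosen again under another scaling of H3K27Ac. Relative to the median of kept windows, H3K4Me1 of late-loss windows was 0.911 at 3 h, 0.674 at 12 h, 0.625 at 24 h and 0.568 at 48 h. The median over all 40030 acetylated windows moved by -0.36 on the log2 scale from 0 to 48 h, and late-loss windows stood at 0.618 of it.

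The kept and the late-loss windows also differed in 0 h acetylation, with median F of 10.2 and 4.38. Among windows with a 0 h F from 3 to under 5, the median H3K4Me1 ratio of 48 h to 0 h was 0.495 in late-loss windows, 1.02 in kept windows and 0.397 in windows lost by 3 h. The gap was therefore present at matched starting acetylation. Kept windows in this range were not all steady. Their H3K27Ac ratio of 48 h to 0 h had a median of 1.08 and a 75th percentile of 1.74. What part of the gap came from windows that gained acetylation was not tested. Of the kept windows at all levels, 11.8% were at or below 0.5 of their 0 h H3K4Me1 at 48 h, and of windows lost by 3 h, 74.3%. At 12 h that share was 38.1% in windows lost by 3 h, while their median H3K4Me1 F went from 7.22 at 0 h to 4.01 at 12 h, close to the 4.21 of late-loss windows. By this share the late-loss windows lay between the kept and the early groups at each of 12, 24 and 48 h.

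**Figure D3:**
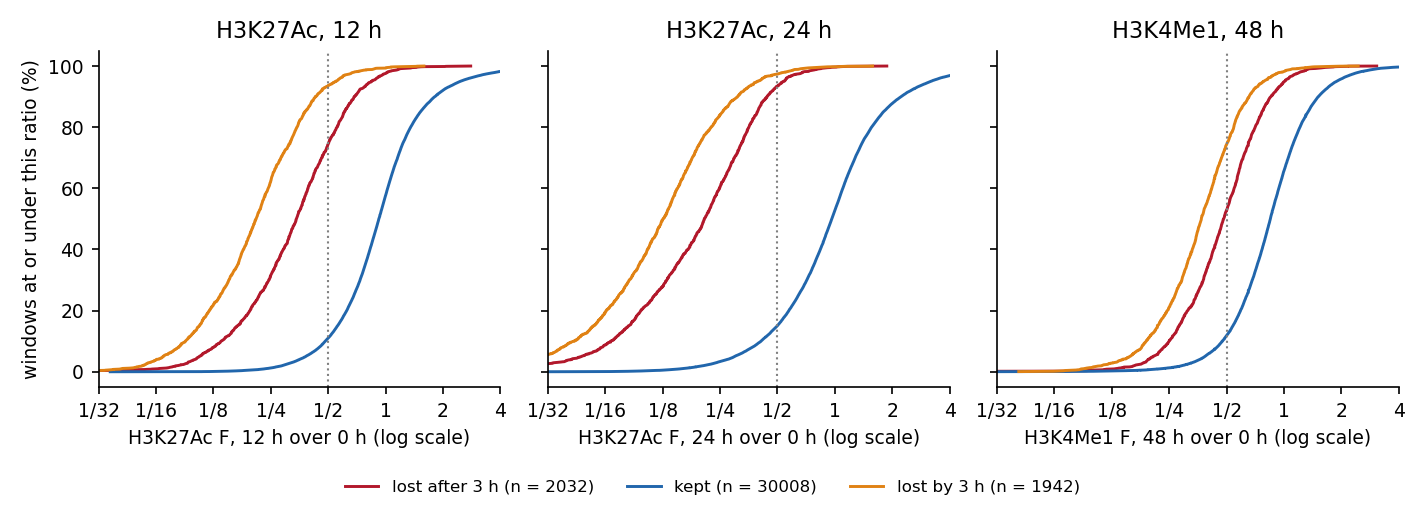
Cumulative share of windows (percent) against F at a later time over F at 0 h (log axis) for H3K27Ac at 12 and 24 h and H3K4Me1 at 48 h, in late-loss, kept and lost-by-3-h windows. At the dotted line, a ratio of 0.5, the late-loss curve stands at 74.5%, 93.4% and close to 52.7%, between the other groups in each panel. The H3K4Me1 panel holds the 2027 late-loss windows with a 0 h tag, while 52.7% is of all 2032.

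Within the late-loss windows, H3K4Me1 was lower at 48 h relative to 0 h where H3K27Ac was low earlier. H3K4Me1 was at or below 0.5 of its 0 h F in 59.2% of windows whose H3K27Ac had passed that mark by 12 h, in 38.9% of those that first did at 24 h and in 16.7% of those that had not by 24 h, beside 19.2% of all acetylated windows. The median H3K4Me1 F at 48 h differed little, at 2.67, 2.90 and 3.05, beside 5.98, 5.07 and 4.14 at 0 h. The classes share their libraries and differ in 0 h H3K27Ac, with median F of 4.71, 3.91 and 3.45, so this is a description across windows.

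Much H3K4Me1 stayed when the acetylation was low, though not absent. At 48 h the median H3K27Ac F was 1.02 in late-loss windows and 0.203 over all windows. At 0 h 1731 late-loss windows (85.2%, against 87.6% of all acetylated windows) had an H3K4Me1 F of at least 3, and 864 of these (49.9%) still did at 48 h. Over all late-loss windows 875 (43.1%) had such a level at 48 h, against 75.6% of acetylated windows. Only 62 of the 1731 (3.58%) were below an F of 1. Of the 1731, 968 (55.9%) were at or below 0.5 of their 0 h F, while across the genome 20.5% of all windows with a 0 h H3K4Me1 F of at least 3 were.

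The largest H3K4Me1 decrease among members with at least 60 tags at 0 h was 22.9 kb beyond the start of Iglc2 in the lambda light chain locus, with 122, 157, 56, 9 and 2 tags beside 154, 185, 14, 7 and 11 tags of H3K27Ac. Both marks were low at 48 h there. A window 17.8 kb before Bcat1, a branched-chain amino acid transaminase, went from 171 to 10 H3K4Me1 tags. One 91.9 kb before Enpep, which encodes the aminopeptidase known as BP-1 on pre-B cells, had 84, 63, 18, 15 and 5 H3K4Me1 tags and 188, 281, 21, 4 and 9 of H3K27Ac. The one 20.8 kb beyond the start of Odc1, which makes polyamines, went from 84 to 6. In the other direction, a window in an intron of Slc36a3, an amino acid transporter, had more H3K4Me1 at the later times, with 105, 107, 150, 182 and 151 tags. One 19.7 kb beyond the start of Tifab had 71, 97, 312, 175 and 95 H3K4Me1 tags and 55, 37, 165, 98 and 24 H3K27Ac tags. Both marks were thus highest there at 12 h. Mdm1, with its window 1.34 kb before the start, had 94, 177, 189, 138 and 108 H3K4Me1 tags.

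H3K27Me3 stayed low. Its median F was 0.633, 0.620, 0.617, 0.556 and 0.651 over the 5 times, below the library mean at each. At 48 h 112 late-loss windows (5.51%) had at least 2 times their 0 h F, which was close to the 5.40% of all acetylated windows. The median ratio of 48 h to 0 h was 1.03, but it was 1.18 with background windows set equal and 0.914 with the windows enriched at all 5 times set equal, so no direction can be given. An F of at least 2 at 48 h was found in 131 late-loss windows (6.45%), 3.22% of kept windows and 4.12% of windows lost by 3 h, against 3.25% of all acetylated windows and 13.3% of all windows. The same level was present at 0 h in 79 (3.89%), 2.78% and 2.21%. The highest 48 h level was 21.4 kb before Slc16a10, an aromatic amino acid transporter, with 74, 34, 83, 85 and 89 H3K27Me3 tags, an F of 1.95, 1.56, 3.66, 3.37 and 4.83, as H3K27Ac went from 94 to 29 tags. In a window 43.4 kb beyond the start of Actg1, cytoplasmic actin, H3K27Me3 had been high from 0 h on. The same held at the start of Kcns1, a potassium channel subunit. The F of these windows was 4.28 and 3.83 at 0 h and 4.72 and 4.23 at 48 h.

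In the mean profile, late-loss windows lay in a trough of a wider acetylated region. At 0 h the mean H3K27Ac F was 5.12 within 0.5 kb of the window centre, 7.56 at 2 kb from it and 4.18 at about 10 kb. At 48 h it was 0.889, 2.03 and 1.77. Windows lost by 3 h had the same shape at 0 h, with 5.99, 8.97 and 4.61. The low centre at 48 h follows from the rule, and asking for a low 48 h value can also favour windows weaker than their neighbours at 0 h. H3K27Ac 2 kb away was nevertheless also lower, at 3.53 by 12 h. H3K4Me1 at 0 h was instead higher near the centre than at 2 kb, with a mean F of 6.33, 5.42 and 3.25 at these distances, and its highest bins lay inside the window on each side of the centre. At 48 h it was 3.00, 2.98 and 2.22. In kept windows the H3K27Ac mean at the centre was 15.0 at 0 h and 12.0 at 48 h.

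**Figure D4:**
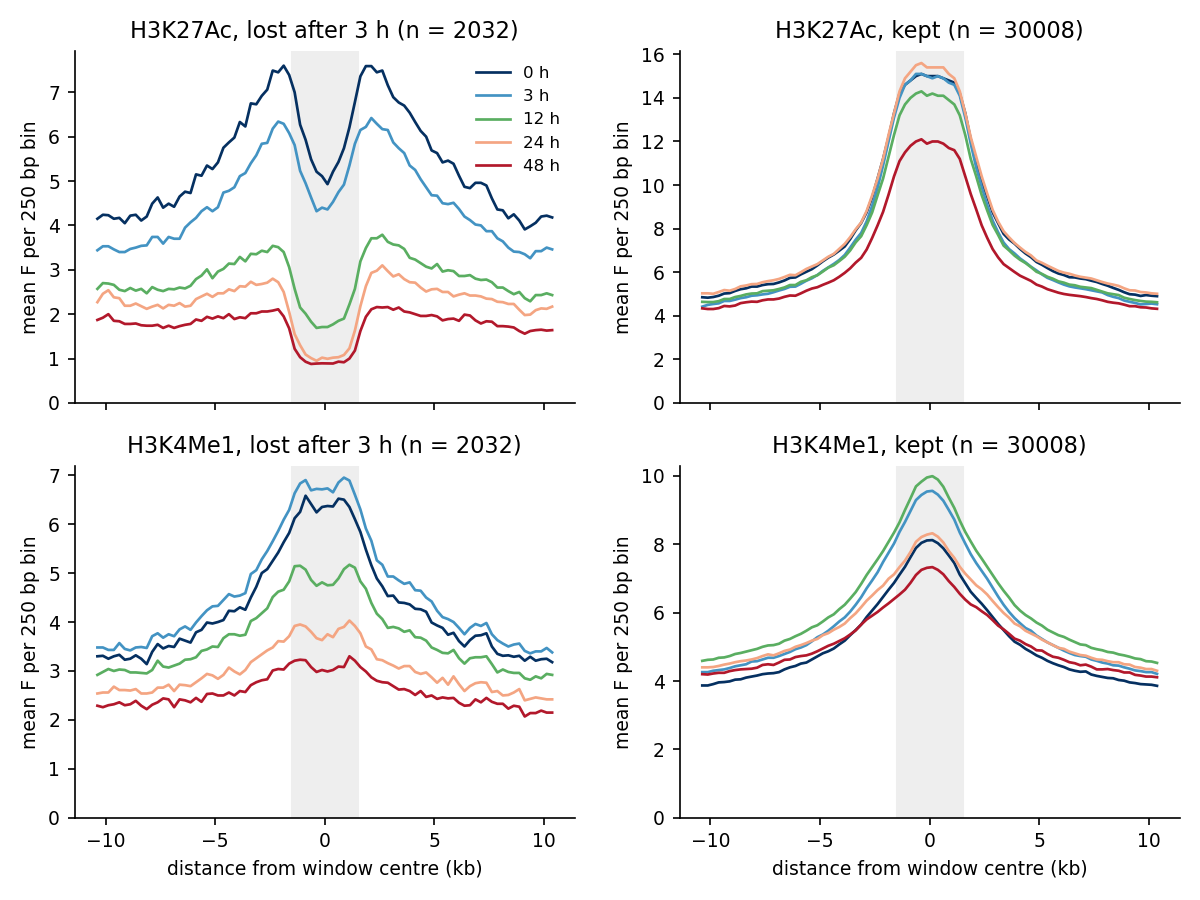
Mean F per 250 bp bin (linear axes starting at 0) against distance from the window centre in kb, at 5 times, for late-loss and kept windows, with the 3 kb window shaded. In late-loss windows H3K27Ac at 0 h is 5.12 at the centre and 7.56 at 2 kb, and it is lower at every distance at 48 h, while H3K4Me1 at 0 h is highest inside the window.

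Part of the late-loss windows bordered chromatin that stayed acetylated. Of the 2032, 941 (46.3%, interval 44.1 to 48.5) were next to a window with a 0 h F of at least 3 and a 48 h F of at least 1.5, and 466 (22.9%) were over 30 kb from any other such window. Of all acetylated windows 69.1% were next to one and 9.93% over 30 kb away. Of the 1942 windows lost by 3 h, 49.4% were next to one and 389 over 30 kb away. The windows over 30 kb away had a median H3K27Ac F of 4.43 at 0 h and 1.17 at 12 h, and those next to one had 4.38 and 1.89. They formed 1834 runs of adjacent windows, of which 1665 were single windows. The longest run was 5 windows, chr14:79293001-79308000 in 1300010F03Rik, with 900, 799, 145, 67 and 58 H3K27Ac tags and 915, 1152, 634, 409 and 336 of H3K4Me1. There were 3 runs of 4 windows, and not all are given. Those named lay 124 kb before Ufm1, the ubiquitin-like modifier, with 919, 732, 305, 153 and 43 H3K27Ac tags, and beyond Khdrbs3, an RNA-binding protein, with 564, 603, 134, 59 and 41. In all 3 named runs H3K27Ac tags were lower at 12 h than at 3 h. The rule left out windows already low at 3 h, so a step after 3 h is partly built in. That step also separates the 0 and 3 h libraries, which stood apart at the heavy chain locus, from the later ones. Over all late-loss windows the median ratios to 0 h were 0.727 at 3 h and 0.341 at 12 h. With low windows set equal they were 0.552 and 0.305, so the size of this step depended on the scaling.

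Late-loss windows were mostly away from starts. Within 2500 bp of an annotated start lay 337 (16.6%, exact binomial 95% interval 15.0 to 18.3), compared with 39.7% of all acetylated windows, 47.7% of kept windows and 12.0% of windows lost by 3 h. Over all 832530 windows it was 9.32%. By annotation, 52.0% had their centre between genes, 42.7% in introns and 5.27% in exons, and between genes lay 39.5% of acetylated and 60.6% of all windows. At a 0 h F from 3 to under 5 the share near a start was 17.6% in late-loss and 33.4% in kept windows, so the gap was smaller at matched levels. The median distance from the start of the assigned protein-coding gene was 40547 bp, against 7809 bp for kept windows. Such intervals cover counting error only, and neighbouring windows are not independent.

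Fewer windows near a start than distal ones were low in acetylation by 12 h. At 12 h 55.5% of the 337 proximal windows were at or below 0.5 of 0 h, and 78.3% of the 1695 distal windows were. Acetylated windows overall differed by position too, with 10.2% of 15891 proximal and 35.0% of 24139 distal windows. The median H3K4Me1 ratio of 48 h to 0 h was 0.566 in proximal and 0.470 in distal windows. Base composition also differed, with a median GC content of 46.2% in proximal and 43.3% in distal late-loss windows, compared with 41.3% over all windows.

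Protein-coding starts lay in 116 late-loss windows (5.71%), against 21.4% of all acetylated windows, 27.4% of kept windows and 2.47% of all windows. The promoters named next were chosen after their values were seen, as those with the most H3K27Ac tags. After Cplx2 came Gm17706, with 375, 225, 124, 28 and 13 tags, and Tmem121, with 304, 205, 107, 26 and 29. At 2810417H13Rik, which encodes a PCNA-associated factor, H3K27Ac was 290, 308, 163, 37 and 15 tags. Neil3, a DNA glycosylase, had 277, 307, 156, 30 and 26, and the window shared by Oip5 and Nusap1, which act at centromeres and on spindle microtubules, had 270, 245, 151, 29 and 17. At 12 h the F of the 5 windows after that of Cplx2 was still above 0.3 of that at 0 h. Umod, described above, and Tmc5 came next and were lower by then, at 0.0319 and 0.163, Tmc5 with 257, 153, 45, 21 and 26 tags. Pbk, a mitotic kinase, had 243, 293, 109, 16 and 19, and Esco2, an acetyltransferase of cohesin, had 231, 245, 134, 32 and 21. Gm10088 was highest at 3 h, with 216, 1210, 85, 31 and 26. At E2f7, a repressor among the E2F factors, the tags were 215, 226, 115, 23 and 24, at Gm1337 203, 261, 97, 50 and 25, and at Nek2, a centrosomal kinase, 200, 225, 156, 48 and 26. H3K4Me1 at these promoters did not share a direction, with an F at 48 h of 1.58 times that at 0 h at Neil3 and 0.175 of it at Umod. No list of such genes had been set, so they are given as single genes.

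The windows fell to 1347 assigned protein-coding genes, of which 955 had 1 window. For 280 of these genes no kept window was assigned, and 1067 had a late-loss window beside at least 1 kept window. Gm7112 (17 windows) and Ighv1-73 (8) had among the most, and both lie within the heavy chain locus. Ebf1 had 14, Grip1, a scaffold protein, and Opcml, a cell adhesion protein, had 8 each, and Coro2a, Fam49a and Celf4 were among those with 7. In the strongest window of Grip1, within an intron, H3K27Ac was 311, 237, 42, 27 and 19 tags. At Opcml the strongest had 144, 214, 46, 15 and 17, and at Coro2a, a coronin, 251, 399, 33, 17 and 13, with the 3 h value above 0 h in both.

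Of the gene lists set for B cells, the V(D)J recombination list had the highest share of late-loss windows, 8 of 39 acetylated windows (20.5%, interval 9.30 to 36.5), beside 5.08% over all genes. Those 8 were 4 at Dntt, 2 at Hmgb1 and 1 each at Rag2 and Xrcc4. Of the 39, 2 were lost by 3 h, as were 1942 of all 40030 acetylated windows. For Dntt, which encodes terminal transferase, the strongest window lay 5.26 kb before the start, with 311, 261, 48, 33 and 27 H3K27Ac tags and 266, 304, 155, 80 and 47 H3K4Me1 tags. Hmgb1, a DNA-bending protein that is active in most cells, had a window 1.41 kb before the start with 149, 128, 93, 17 and 10.

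B lineage regulators had 38 late-loss windows of 485 (7.84%, interval 5.60 to 10.6), at 10 of 22 genes, and 32 windows lost by 3 h. Ebf1 gave 14 of the late-loss windows out of its 87 acetylated windows, while 55 were kept and 8 were lost by 3 h. Its strongest window, 442 kb beyond the start and past the end of the gene, had 420, 262, 85, 42 and 23 H3K27Ac tags and 202, 275, 99, 45 and 15 H3K4Me1 tags. Foxo1 had 4, the strongest at 135 kb with 138, 82, 24, 15 and 20. Ets1 had 3, the strongest 18.3 kb before the start with 191, 123, 33, 20 and 26 H3K27Ac tags, and its H3K4Me1 went from 235 to 80. Myb, Sox4, Bach2 and Tcf4 had 3 each and Bcl11a and Pax5 had 2. At Bach2, a repressor of later B cell stages, the strongest window was slow, with 85, 81, 67, 44 and 22 tags. At Sox4 it had 153, 105, 52, 29 and 12, and at Myb 93, 103, 51, 17 and 23.

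The pre-B receptor and signalling list had 8 of 174 (4.60%), near the share over all genes, and 10 windows lost by 3 h. Prkcb, the protein kinase C of B cell receptor signalling, held 5 of the late-loss windows from only 8 acetylated windows. Its strongest window, in an intron, had 363, 688, 21, 4 and 17 H3K27Ac tags, so that it was highest at 3 h and low by 12 h. H3K4Me1 there was 217, 339, 145, 79 and 49 tags. H3K27Me3 was 64, 32, 48, 55 and 65 tags, an F of 1.69, 1.47, 2.11, 2.18 and 3.53, which was higher at 48 h than at 0 h. Lymphoid progenitor receptors had 6 of 93 (6.45%), 2 each at Cxcr4 and Il7r and 1 each at Cxcr5 and Flt3. Of the same 93, 13 were lost by 3 h, 6 of them at Cxcr4. Cxcr4, the receptor for CXCL12, had a late-loss window 12.6 kb before the start with 110, 89, 28, 16 and 17 tags.

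The macrophage list had 2 of 56 (3.57%), both assigned to Tlr4, the stronger of them 260 kb beyond its start with 75, 64, 7, 4 and 11 tags. The list of genes active in every cell had 0 of 33. Windows lost by 3 h numbered 2 in the macrophage list and 0 in that of every cell. The T lineage and the erythroid and megakaryocyte lists are not reported here. Spi1 and Syk were not found under these symbols in the annotation, and the lists carry no test.

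The immunoglobulin loci held 37 late-loss windows. The heavy chain locus, which spans 2.72 Mb in the annotation, had 31 of its 105 acetylated windows, the kappa locus 4 of 11 and the lambda locus 2 of 8, beside 5.08% of acetylated windows in all. Windows lost by 3 h numbered 12, 6 and 1 in the heavy chain, kappa and lambda loci. Without the 4 windows of the span that only some libraries cover, 27 late-loss windows remained in the heavy chain locus. Beside that span, chr12:114666001-114669000 at the joining segments had 472, 587, 145, 84 and 16 H3K27Ac tags, but H3K4Me1 there had 0 tags at 0 h and 12 at 48 h. Farther into the variable segments H3K4Me1 had tags at every time in the late-loss windows, and H3K27Me3 ranged from 0 to 128 tags. For example, chr12:115536001-115539000 had 123, 120, 29, 12 and 18 H3K27Ac tags and 133, 233, 97, 53 and 39 H3K4Me1 tags. Over the 31 windows the median H3K27Ac F was 5.58, 4.46, 0.917, 0.807 and 0.660, and in the kappa locus chr6:70443001-70446000 had 193, 280, 19, 18 and 11 tags. Their H3K27Ac was again low by 12 h, and which part of this reflects the difference between libraries was not tested.

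Short motif cores were counted on both strands in the 3 kb windows. TCCCNNGGG of EBF1 was present in 34.4% of late-loss, 38.6% of kept, 41.0% of lost-by-3-h and 23.7% of all windows. The octamer ATGCAAAT, bound by OCT factors, was in 19.7%, 15.0%, 19.1% and 23.3%, and the FOX core GTAAACA in 38.2%, 34.9%, 35.4% and 37.0%. GAGGAAGT of PU.1 was in 18.0%, 21.9%, 20.2% and 16.7%. In distal windows with a 0 h F from 3 to under 5, the PU.1 core was in 18.2% (interval 15.9 to 20.7) of late-loss and 22.3% (21.1 to 23.6) of kept windows. The C/EBP core was in 24.6% and 24.7%, the EBF1 core in 32.8% and 33.7% and GCAGCTG in 45.5% and 45.7%, each with overlapping intervals. TGAGTCA, bound by AP-1, was in 42.2% and 45.3%, TGTGGTT in 55.3% and 57.9% and GCAGGTG in 47.1% and 49.2%. The FOX core was in 398 of 1012 and 1539 of 4278 windows and the octamer in 19.1% and 17.2%. The PU.1 intervals were the only ones of the 9 in this comparison that did not overlap. Over distal windows of any 0 h level the octamer was in 19.9% (18.0 to 21.9) of late-loss and 16.9% (16.3 to 17.5) of kept windows. The EBF1, PU.1 and AP-1 cores were in 32.9%, 18.1% and 40.6% of these late-loss and 36.2%, 24.4% and 45.3% of these kept windows, also with intervals that did not overlap, and no test of enrichment was made. GC content, on which such matches depend, had a median of 43.2% and 44.4% in the distal late-loss and kept windows with a 0 h F from 3 to under 5, and of 43.3% and 44.8% in those of any level.

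**Figure D5:**
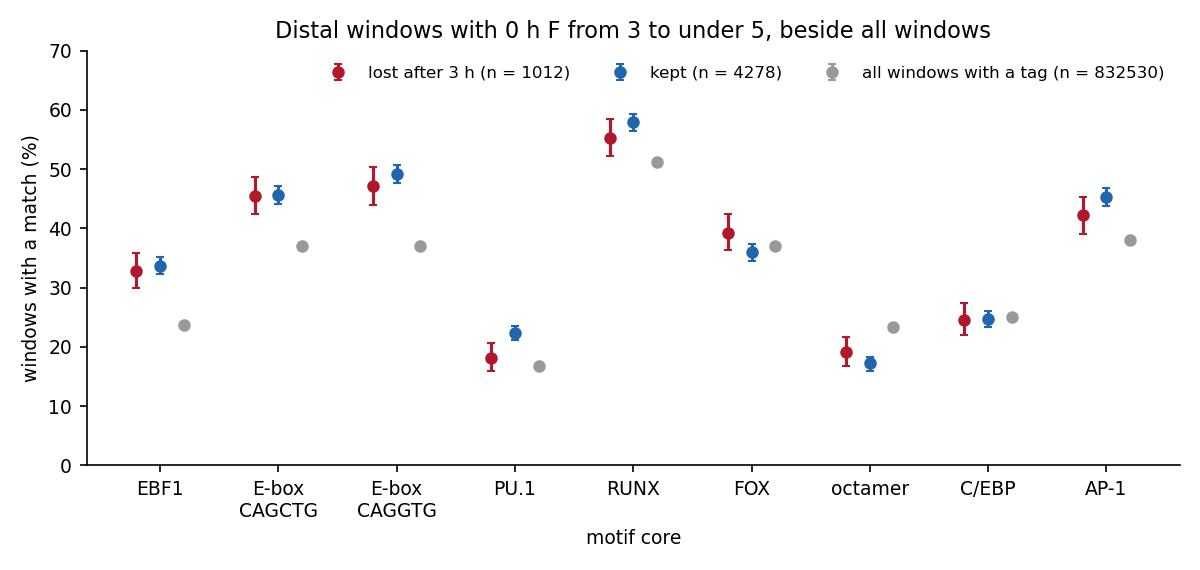
Share of windows with at least 1 match on either strand (percent, axis from 0) for 9 motif cores in distal late-loss (n = 1012) and kept (n = 4278) windows with a 0 h F from 3 to under 5 and in all 832530 windows with a tag, with exact binomial 95% intervals. Late-loss and kept windows lie close together, with the widest clear gap at the PU.1 core, 18.2% against 22.3%.

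The median H3K27Ac F of late-loss windows was lower at 12 h than at 0 h on 20 of 20 chromosomes, and so was the median H3K4Me1 F at 48 h. Chromosomes share their libraries and are not replicates, and the rule itself favours a lower H3K27Ac value at 12 h. Over all acetylated windows the median H3K4Me1 ratio of 48 h to 0 h was also below 1, at 0.780. The median H3K27Me3 F was higher at 48 h than at 0 h on 5 of 20. Chromosome X had the lowest medians at 0 h of H3K4Me1 (4.02) and H3K27Me3 (0.290), against 6.75 on chromosome 14 and 0.858 on chromosome 7, the highest. The share of acetylated windows that were late-loss windows ran from 3.44% on chromosome 17 to 7.83% on chromosome 12, which holds the heavy chain locus.

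Values just inside and just outside the limits of the rule were close. The 564 members with a 48 h F from 1.25 to 1.5 had a median H3K4Me1 F of 3.20 at 48 h, and the 599 windows just outside, from 1.5 to 1.75, had 3.66. The 261 members with a 3 h ratio from 0.5 to 0.55 had a median H3K27Ac F of 1.48 at 12 h, and the 288 just below had 1.43. The 295 with a 0 h F from 3 to 3.25 had 1.32, and the 266 just under 3 had 1.35.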

How the data were processed

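ChIP-seq was done for 3 histone marks at 5 times after induction, with 1 library each (15 in all). The deposited files hold tag positions (chromosome, start, end and strand of each 36 bp tag), with no count or signal column. Per the labels, the build was mm9 and the aligner Bowtie. The study's methods name Eland or Bowtie, allow no mismatch and state that repeated tags and tags with several matches were dropped.

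Distinct positions on chromosomes 1 to 19 and X were counted by tag midpoint in 3 kb windows and divided by the mean of each library over windows with a tag in any library (F). Some deposited files still held repeats, up to 205 of 1 position in the H3K4Me1 library of 0 h, and each position was counted once. Annotation was GENCODE vM1 on NCBIM37. A window was assigned to the protein-coding gene whose body, or the 2500 bp before it, held its centre, otherwise to the nearest start. Counts have exact Poisson and shares exact binomial 95% intervals, which cover counting error only. The choice rule and the motif search were tested on simulated data. Named windows were those with most 0 h tags (8, at most 1 per gene), the highest and lowest H3K27Ac 12 h ratios (4 each, at least 80 tags), H3K4Me1 48 h ratios (4 each, at least 60 tags), the 3 highest in H3K27Me3 at 48 h, the genes with most windows, up to 12 listed genes with the listed macrophage genes, and 3 of the longest runs. The windows and the gene and marker lists were chosen with earlier results of these data known. Python 3, NumPy and SciPy were used. Tags on other chromosomes were left out. Some sequences and listed genes are not reported here. Other scalings, thinning, grids, window sizes and limits were tried, and the closing section gives their effect.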

Additional observations from a re-analysis of the deposited data

How the results depend on the processing

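No paired analysis was possible because no group held a second library, and for the same reason no replicate could be left out. The number of late-loss windows was 2032. It was 1182 when low windows were set equal across libraries, all of them among the 2032. With windows enriched at all 5 times set equal it was 1425, of which 1259 were among the 2032, so the membership also changed. It was 1151 with 6 kb windows, 1181 with a 0 h F of at least 4, 976 with a 48 h F under 1 and 954 with a 3 h value over 0.75 of 0 h.

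Ratios under the other scalings are medians of the reported late-loss windows. Those for other window sizes and limits are of windows chosen again. Setting low windows equal gave an H3K27Ac ratio to 0 h of 0.305 at 12 h and 0.335 at 24 h. The H3K4Me1 ratio was then 1.21 at 12 h, 0.994 at 24 h and 0.792 at 48 h, and that of H3K27Me3 was 1.18 at 48 h. The H3K4Me1 value at 12 h thereby changed direction. Setting windows enriched at all 5 times equal gave 0.379 for H3K27Ac at 12 h, 0.650, 0.552 and 0.499 for H3K4Me1 at 12, 24 and 48 h and 0.914 for H3K27Me3. With 2 kb windows H3K27Ac at 24 h was 0.200 and H3K4Me1 at 48 h was 0.466. With 6 kb windows H3K27Ac at 12 h was 0.356, H3K4Me1 was 0.801, 0.620 and 0.507 and H3K27Me3 was 0.997.

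With a 0 h F of at least 4, H3K27Ac was 0.295 at 12 h and 0.165 at 24 h, and H3K4Me1 at 48 h was 0.467. With a 48 h F under 1, H3K27Ac was 0.266 and 0.139, H3K4Me1 was 0.713, 0.539 and 0.439, and 14.0% of windows were near a start. With a 3 h value over 0.75 of 0 h, H3K27Ac was 0.389 and 0.228, H3K4Me1 was 0.865, 0.661 and 0.538, and 19.9% were near a start. In distal windows H3K27Ac at 12 h was 0.320, H3K4Me1 was 0.745 at 12 h and 0.568 at 24 h, H3K27Me3 was 1.0 and by construction 0% were near a start. At a 0 h F from 3 to under 5, the H3K4Me1 ratio of 48 h to 0 h was 1.02 in kept windows, on the other side of 1 from the 0.848 of all kept windows, and 0.397 in windows lost by 3 h.

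In all, 108 of 153 values, the count of 1425 among them, stayed within the 95% interval of the reported value, or within 1.5 times a reported count. The cause of the scaling differences was not tested.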
